A study of Mus musculus with 2 samples.

Results

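Complex II, complex III with its electron carrier cytochrome c, and ATP synthase carry electrons and protons through the inner membrane of the mitochondrion and make most of the ATP that heart muscle uses. Their genes were taken by name from the annotated protein-coding genes of the deposited tables: names that begin with Sdha, Uqc or Atp5, the subunit genes Sdhb, Sdhc and Sdhd, and Cyc1, Cycs and Atpif1. This gave 40 genes under 39 names, of 15031 annotated genes with reads and 12840 protein-coding ones, and all 40 had reads in both libraries. Atp5o is the name of 2 genes: the main one (1984 reads in replicate 1 and 2073 in replicate 2) overlaps another with 3 and 1 reads of the genomic class. Atp5l2-ps, a processed pseudogene with 4 and 8 reads, was left out by the rule on gene type. Usmg5, known as the DAPIT subunit of ATP synthase and named here after its reads were seen, lies outside the rule with 2056 and 2090 reads.

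The study sequenced total RNA of whole heart as cDNA with long reads. Both libraries came from female B6CASTF1/J mice, the first-generation offspring of the C57BL/6J and CAST/EiJ strains, aged 18 to 20 months, with 2 µg of RNA as input and spike-in RNAs added. The series holds 1 group of 2 replicates and no treatment, so the comparisons are between members and between the libraries. The labels give the libraries separate sample entries but the same donor entry, so differences between the libraries may be technical. The p-values set these differences against counting error only and take in no spread between samples.

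Replicate 1 held 642970 listed reads and replicate 2 held 677209, of which 12759 and 12890 were spike-ins. Heart muscle marker genes had reads for 8 of 8 genes and summed to 46987 CPM (reads in 1000000 mouse reads, after TMM scaling) in replicate 1 and 43053 in replicate 2, with Myh6, Pln, Myl3 and Myl2 higher in replicate 1. Other cell types moved between the libraries. The 5 erythroid markers summed to 30391 CPM in replicate 1 and 11784 in replicate 2 and all 5 were higher in replicate 1. The 4 atrial markers, 1806 CPM in replicate 1 and 4318 in replicate 2, were all higher in replicate 2. Of 3 brown fat markers 2 were higher in replicate 2, Ucp1 with 3 and 23 reads and Cidea with 71 and 216, and of 6 fat cell markers tested 5 were higher in replicate 2 (summed 621 and 1518 CPM, Lep at 0). Endothelial markers summed to 370 and 344 CPM and fibroblast markers to 2456 and 2869 CPM, of which Col3a1 alone of 6 passed, higher in replicate 2 with 43 reads in replicate 1 and 89 in replicate 2. Of 7 skeletal muscle markers Myh2, Myh4, Tnnt3 and Pvalb were at 0, and Mylpf and Myh1 had at most 1 read in a library. Acta1 had 294 reads in replicate 1 and 242 in replicate 2 and did not pass (adjusted p = 0.0678, exact binomial test). Brown fat is itself rich in mitochondria, and the part of these cells in the differences below was not tested. In whole tissue, fewer cells of a type and less RNA per cell cannot be told apart.

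As background, complex II (succinate dehydrogenase) passes electrons from succinate to coenzyme Q and is also an enzyme of the citric acid cycle. Complex III passes them from coenzyme Q to cytochrome c while it pumps protons, and ATP synthase lets the protons flow back through a rotating c ring, whose turning drives ATP formation in the F1 head. All 4 subunits of complex II are encoded in the nucleus, whereas complex III takes cytochrome b (mt-Cytb) and ATP synthase takes subunits a and A6L (mt-Atp6 and mt-Atp8) from the mitochondrial genome.

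The 40 genes together took 7.86% of the mouse reads of replicate 1 and 7.98% of those of replicate 2. Together they reached 79668 CPM in replicate 1 against 78691 in replicate 2, on average 79179 ± 691 CPM (SD, n = 2). The 17 ATP synthase subunit genes, both Atp5o genes among them, made 61.8% of it at 48964 ± 824 CPM. The 9 nuclear subunit genes of complex III summed to 22665 ± 307 CPM and the 4 of complex II to 4314 ± 8.22 CPM. Cycs, cytochrome c itself, stood at 1684 ± 78.6 CPM, and the 8 genes of the assembly factors and the inhibitor summed to 1525 ± 98.0 CPM. The assembly factors and the inhibitor together lay below Cycs alone in both libraries, at 1595 and 1456 CPM against 1740 and 1628 CPM.

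**Figure D1:**
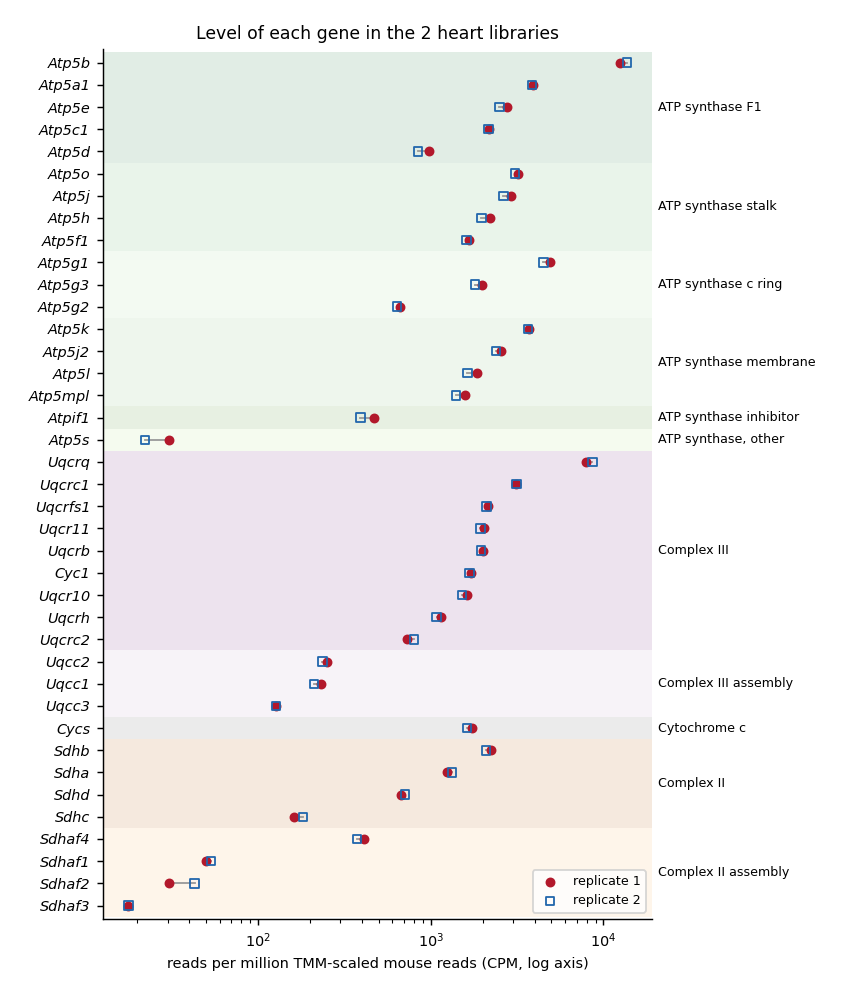
Level of each of the 39 genes with at least 10 reads over both libraries, in CPM on a log axis, grouped by complex and role. Filled circles are replicate 1 and open squares replicate 2, joined by a grey line; mean levels ran from 13083 CPM for Atp5b to 17.8 CPM for Sdhaf3.

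In the F1 head of ATP synthase, Atp5b, the catalytic beta subunit (chr10:128083273-128090391, mm10), was the most abundant of all members with 12458 CPM in replicate 1 and 13708 CPM in replicate 2. Atp5a1, the alpha subunit that alternates with beta in the head, had 3928 CPM in replicate 1 and 3861 CPM in replicate 2. Most Atp5b reads were short, as described further on, and the gap between these partners depends on whether those reads are counted. Of the central stalk, Atp5e (epsilon) stood at 2627 ± 181 CPM, Atp5c1 (gamma, the rotor shaft) at 2167 ± 1.36 CPM and Atp5d (delta) at 912 ± 97.9 CPM.

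In the peripheral stalk, which holds the head still, Atp5o (OSCP) led with 3135 ± 81.7 CPM, followed by Atp5j (F6) at 2772 ± 199 CPM, Atp5h (d) at 2087 ± 175 CPM and Atp5f1 (b) at 1640 ± 39.0 CPM. In the membrane part, Atp5k (e), which takes part in pairing 2 synthases into dimers, had 3698 ± 40.7 CPM, Atp5j2 (f) 2472 ± 120 CPM, Atp5l (g) 1746 ± 160 CPM and Atp5mpl (6.8PL) 1488 ± 117 CPM. The inhibitor gene Atpif1, whose product blocks ATP hydrolysis by the synthase, had 471 CPM in replicate 1 and 392 CPM in replicate 2. Atp5s, coupling factor B, was near the lower end with 19 and 15 reads.

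The c ring is built from copies of a single small protein that 3 genes encode, with different leader peptides ahead of the same mature part. A script translated their annotated coding regions: the proteins of Atp5g1, Atp5g2 and Atp5g3 had 136, 146 and 141 residues and ended in the same 78 residues. The 234 bases that encode this shared part differed at 63 positions among the 3 genes, and Atp5g1 and Atp5g2 were the closest pair with 84.6% identity, against 78.6% for Atp5g1 and Atp5g3 and 77.4% for Atp5g2 and Atp5g3. The first 90 of these bases are shown because they show how genes with the same mature protein can be told apart in RNA, with capitals at the 26 positions where the 3 do not all agree (leading annotated transcripts in GENCODE M21, with Atp5g1 on chromosome 11, Atp5g2 on chromosome 15 and Atp5g3 on chromosome 2).
Atp5g1: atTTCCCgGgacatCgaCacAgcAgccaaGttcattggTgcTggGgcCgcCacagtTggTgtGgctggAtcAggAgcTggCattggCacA
Atp5g2: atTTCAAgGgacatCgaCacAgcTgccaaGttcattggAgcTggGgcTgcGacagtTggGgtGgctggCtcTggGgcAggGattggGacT
Atp5g3: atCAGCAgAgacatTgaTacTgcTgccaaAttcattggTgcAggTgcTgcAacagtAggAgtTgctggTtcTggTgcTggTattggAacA

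Of the 3 c ring genes Atp5g1 was the highest, with 4916 CPM in replicate 1 and 4486 CPM in replicate 2 (chr11:96068852-96075670). Atp5g3 had 1971 CPM in replicate 1 and 1801 CPM in replicate 2, and Atp5g2 had 668 and 638 CPM. The order of the 3 was the same in both libraries and their ranges did not overlap. For Atp5g2 the level rests mostly on reads without a whole coding region: 278 of 415 reads in replicate 1 and 319 of 430 in replicate 2 were of a 151-base model of the genomic class over the last bases of the transcript. Reads over a whole coding region gave Atp5g2 178 ± 30.9 CPM, Atp5g3 1655 ± 101 CPM and Atp5g1 4458 ± 277 CPM.

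Atp5g2 also has a processed copy with reads of its own. Gm10231 on chromosome 17, annotated as a processed pseudogene, matched the Atp5g2 transcript at 100% of its bases and was listed with 208 reads in replicate 1 and 413 in replicate 2. Its level was 0.546-fold in replicate 1 relative to replicate 2 (95% interval 0.460 to 0.647, adjusted p = 7.43e-11 by the exact binomial test across all genes). Atp5g2 and Gm10231 summed to 1003 CPM in replicate 1, against 1251 CPM in replicate 2, with a ratio of 0.801 (0.721 to 0.890), whereas the ratio for Atp5g2 alone was 1.05 (0.912 to 1.20). The sources used here do not say how the counting divided reads between gene and copy, so the level of Atp5g2 is uncertain. In all, 12 processed pseudogenes with reads matched 9 members at 90% identity or more over at least 80% of their length, with 573 reads in replicate 1 and 799 in replicate 2. For Atp5l the copies held 189 and 215 reads, which is 16.4% and 19.5% of the reads of the gene, and for Atp5h 117 and 99 reads, or 8.52% and 7.48%.

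In complex III, Uqcrq, the ubiquinone-binding QP-C subunit, had the highest level from all reads, with 7941 CPM in replicate 1 and 8642 CPM in replicate 2 (chr11:53427922-53430831). Most of these reads lacked the start codon, and from reads over a whole coding region Uqcrq, at 2789 ± 95.8 CPM, stood below Uqcrc1 at 2949 ± 32.6 CPM. The core protein gene Uqcrc1 had 3106 and 3141 CPM, while Uqcrc2, its partner core protein, had 732 CPM in replicate 1 and 800 CPM in replicate 2. The 2 core genes therefore did not run at the same level in either library. The redox centres lay between them: Uqcrfs1, the Rieske iron-sulfur protein, at 2122 ± 17.4 CPM and Cyc1, cytochrome c1, at 1702 ± 28.3 CPM. The small subunits Uqcr11, Uqcrb, Uqcr10 and Uqcrh (the hinge protein) stood at 1993 ± 72.2, 1984 ± 30.2, 1567 ± 64.3 and 1118 ± 48.5 CPM. The mitochondrially encoded partner mt-Cytb had 5841 CPM in replicate 1 and 5909 CPM in replicate 2.

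In complex II the order was Sdhb, Sdha, Sdhd and Sdhc in both libraries, with no overlap between neighbours. Sdhb, the iron-sulfur subunit, had 2222 CPM in replicate 1 and 2096 CPM in replicate 2. Sdha, the flavoprotein that oxidises succinate, had 1247 and 1333 CPM. Of the 2 membrane anchors Sdhd had 676 CPM in replicate 1 and 708 CPM in replicate 2, and Sdhc only 163 and 183 CPM. Sdhc was thus the lowest subunit gene among the members of all 3 complexes, apart from the second Atp5o gene.

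The assembly factors ran from 395 CPM for Sdhaf4 to 17.8 CPM for Sdhaf3, and Sdhaf4, Uqcc2 and Uqcc1 lay above the subunit gene Sdhc. Of the complex II factors, Sdhaf1 and Sdhaf3, which serve the iron-sulfur subunit, had 51.7 ± 2.51 and 17.8 ± 0.0785 CPM, and Sdhaf2, which adds the flavin to Sdha, had 36.8 ± 8.82 CPM. Sdhaf4 stood at 395 ± 26.9 CPM, but 176 of its 257 reads in replicate 1 and 179 of 253 in replicate 2 were of a genomic-class model that is 1 base long as deposited, so its level is uncertain. The complex III factors Uqcc2, Uqcc1 and Uqcc3, which help to make and insert cytochrome b, had 244 ± 10.6, 222 ± 15.9 and 127 ± 0.373 CPM. Of 9 further assembly and maturation factors outside the name rule, Tmem70, which serves ATP synthase, was the highest at 417 ± 22.7 CPM followed by Tmem242 at 126 ± 6.10 CPM and Atpaf1 at 92.2 ± 16.6 CPM. The lowest adjusted p among these 9 was 0.330, for Hccs, by the exact test described next.

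The same order of levels was found in both libraries for most genes. Spearman's rho over the 40 genes was 0.998 between the libraries, which share the tissue, the protocol and the gene lengths, and 17 of the 39 neighbouring pairs in the order had overlapping ranges. The longest stretch in which each gene overlapped the next held 13 genes, from Atp5c1 at 2167 CPM to Atp5mpl at 1488 CPM, and took in subunits of all 3 complexes and Cycs. A long read counts 1 molecule whatever its length, so CPM was not divided by length. Per kilobase of the leading annotated transcript the order changed (rho 0.827 with the order by CPM): Atp5k was then first with 9968 CPM per kb, ahead of Atp5g1 with 7887, Atp5b with 6828, Atp5e with 6241 and Uqcrq with 5451 CPM per kb.

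Few members differed between the libraries. Each gene's reads were set against the scaled library sizes in a two-sided exact test (binomial, Benjamini-Hochberg adjusted over all tested genes). Of the members, 3 of 39 tested passed an adjusted p of 0.05, against 156 of all 7545 tested genes, or 2.07% (0.861% higher in replicate 1 and 1.21% higher in replicate 2). Among the genes with at least 1000 reads, where small differences can be seen, 3 of 26 members and 41 of 182 genes (22.5%) passed; 7.14% of those genes were higher in replicate 2. Atp5b was 0.909-fold in replicate 1 relative to replicate 2 (0.882 to 0.937, adjusted p = 8.47e-08), and Uqcrq was 0.919-fold (0.885 to 0.955, adjusted p = 0.00105 in the same exact test). Atp5g1 was 1.10-fold in replicate 1 relative to replicate 2 (1.04 to 1.15, adjusted p = 0.0216 in the same exact test). The common coefficient of variation between the libraries, beyond counting error, was 0.163 over the 7545 genes. The exact test leaves this spread out, so it does not show that the 3 differences exceed it.

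The other 36 tested members did not pass, among them Atp5h with a ratio of 1.13 (1.04 to 1.22, adjusted p = 0.0817 by the exact test) and Atp5l with 1.14 (1.05 to 1.24, adjusted p = 0.0827 by the exact test). The log2 ratio of replicate 1 over replicate 2 was above 0 for 28 members and below 0 for 11, with a median of 0.065 against -0.0005 over all tested genes. Uqcrc2, Sdha, Sdhd and Sdhc were among those below 0. The median rests on the scaling: with size factors of DESeq2 it was 0.005 and that of all tested genes -0.060. With reads of annotated transcripts alone none of the 3 calls held, and with total reads or size factors of DESeq2 the call on Atp5g1 was lost.

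**Figure D2:**
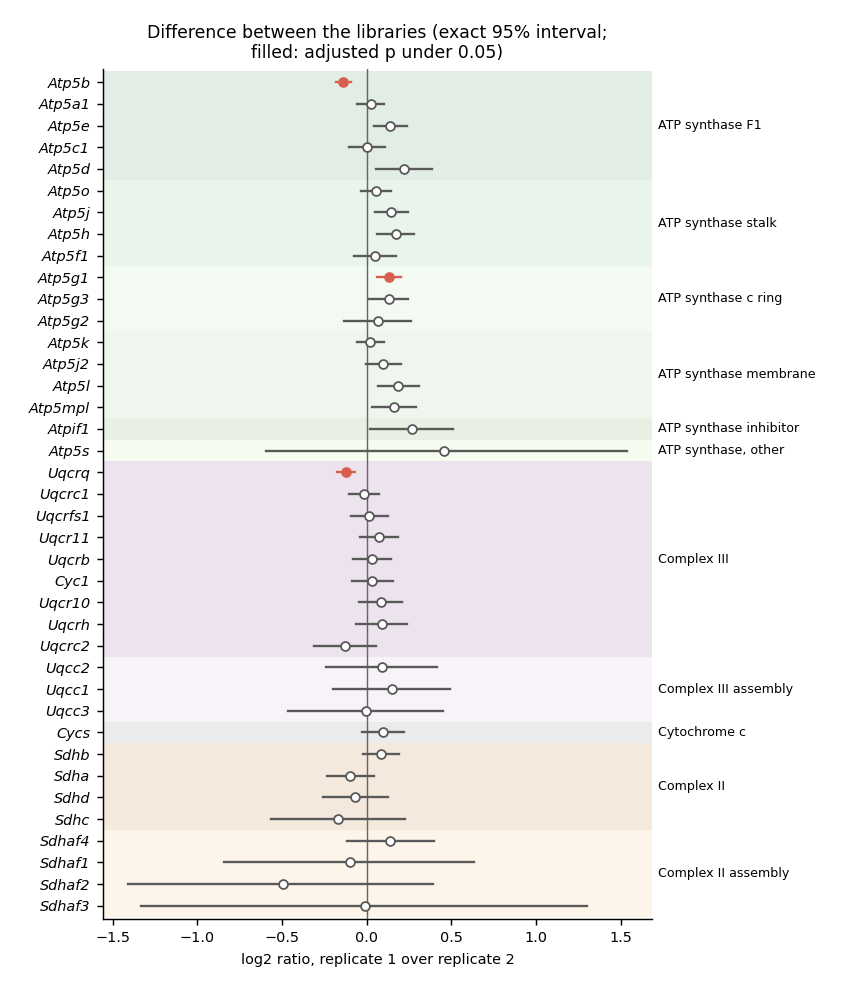
Log2 ratio of replicate 1 over replicate 2 for the 39 tested members, with exact 95% intervals, grouped by complex and role. Filled points passed an adjusted p of 0.05: Atp5b and Uqcrq lie below 0 and Atp5g1 above 0, and intervals widen towards the assembly factors with few reads.

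Genes around these complexes were tested in the same way. The 13 genes of coenzyme Q synthesis did not pass the exact test, with a lowest adjusted p of 0.715, and were led by Coq9 at 566 ± 0.637 CPM, Coq8a at 445 ± 4.06 CPM and Coq3 at 431 ± 11.5 CPM. Of 5 other genes whose products deliver electrons to coenzyme Q, Etfdh was the highest with 381 CPM in replicate 1 against 457 in replicate 2 and did not pass (adjusted p = 0.445, exact test), ahead of Sqor at 37.6 ± 9.87 CPM and Dhodh at 20.9 ± 2.29 CPM. Of 3 carriers of ATP, ADP and phosphate across the inner membrane, Slc25a4 was the highest at 29468 ± 289 CPM and did not pass, nor did Slc25a3 at 1471 ± 79.6 CPM. Slc25a5, with 3006 CPM in replicate 1 and 2664 CPM in replicate 2, passed with a ratio of 1.13 (1.06 to 1.20, adjusted p = 0.0172 by the exact test). Of the mitochondrially encoded ATP synthase partners, mt-Atp6 had 632 CPM in replicate 1 and 628 CPM in replicate 2, and mt-Atp8 had no listed read.

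The reads were not all full transcripts. Each read was assigned by the deposited processing to an annotated transcript, to a shortened model that follows only a part of one (incomplete splice match, ISM), to a new combination of known splice sites (NIC), to a model with a new splice site (NNC), or to the genomic class, which follows no annotated introns. Annotated transcripts held 69.5% ± 1.67 of the members' reads (SD, n = 2) and ISM models 27.5% ± 1.64, beside 68.8% ± 0.890 and 16.4% ± 1.78 in all other protein-coding genes. The Nduf genes of complex I had 67.5% ± 1.37 on annotated transcripts and 30.8% ± 1.36 on ISM models, and the Cox4 to Cox8 genes of complex IV had 87.8% ± 0.166 and 10.99% ± 0.131. Of 35 members with at least 100 reads, 19 had 90% or more of their reads on annotated transcripts and the median was 93.7%. The ISM reads came mainly from 4 genes, Atp5b, Uqcrq, Atp5j and Atp5f1: without them, a choice made after seeing the data, annotated transcripts held 90.5% ± 0.397 and ISM models 5.81% ± 0.195. Outside the genomic class the leading model of the other members with at least 100 reads was an annotated transcript, with a share that ran from 58.9% for Atp5g3 to 100% for Uqcrfs1.

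**Figure D3:**
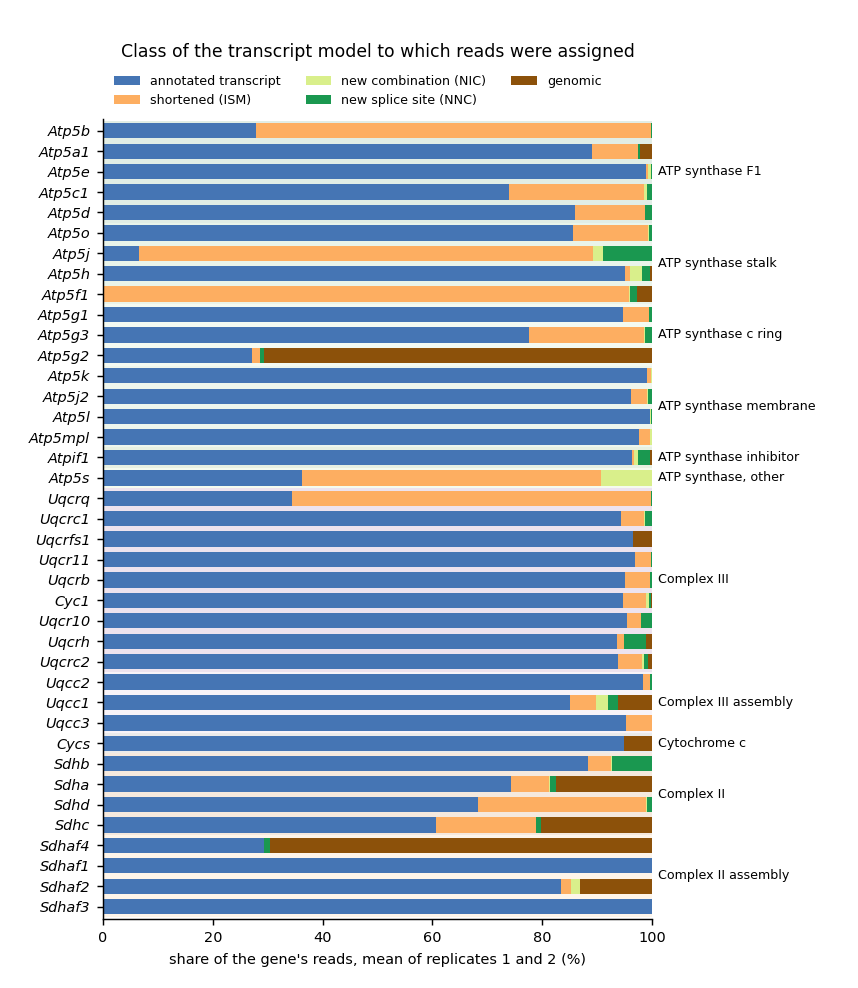
Share of each gene's reads by class of transcript model, mean of replicates 1 and 2, for the 39 genes with at least 10 reads. Atp5b, Uqcrq, Atp5j and Atp5f1 carry most of the shortened class, Atp5g2 and Sdhaf4 mostly the genomic class, while Atp5j and Sdhb show new splice sites at 8.99% and 7.24%.

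In Atp5b the leading model was an ISM of the last 2 exons, with 5243 of 7742 reads in replicate 1 and 6340 of 9235 in replicate 2. It held 67.7% and 68.7% of the gene's reads outside the genomic class, and the full 10-exon transcript held 2178 and 2526 reads. The shortened model stops short of the 3′ end of the full transcript, past the coding region (bases 55 to 1644). Reads over the base fell from 99.9% at base 1781 to 28.1% in replicate 1 and 27.4% in replicate 2 at base 1801. The shortened model begins 1425 bases after the start of the full transcript, within the coding region, so it lacks the start codon. That point is also the edge of an exon annotated in another transcript of the gene. The stretch around it is shown because most reads of the most abundant member begin there as deposited. Capitals mark the bases that belong to the shortened model.
Atp5b, chromosome 10: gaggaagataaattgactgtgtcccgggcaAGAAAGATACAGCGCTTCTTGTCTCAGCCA

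In Uqcrq the leading model was a 198-base ISM of a single exon, with 3122 reads in replicate 1 and 3931 in replicate 2. It begins 292 bases after the start of the annotated 2-exon transcript, inside the coding region (bases 139 to 387). It too lacks the start codon. It also stops short of the 3′ end of that transcript of 1521 bases. Reads over the base fell from 100% at base 481 to 32.6% in replicate 1 and 28.6% in replicate 2 at base 501. The share of the shortened model was 63.3% of the gene's reads in replicate 1 (95% interval 61.9 to 64.6) and 67.5% in replicate 2 (66.3 to 68.7). This was the only member of 39 whose leading share differed between the libraries (Fisher's exact test, two-sided, adjusted p = 0.0004), against 73 of 4223 tested genes, or 1.73%. That 2-exon transcript had 1608 and 1665 reads. Counted only over a whole coding region, the level of Uqcrq had a ratio of 1.05 between replicate 1 and replicate 2 (0.983 to 1.12), while its other reads had a ratio of 0.859 (0.819 to 0.900). For Atp5b the corresponding ratios were 0.935 (0.882 to 0.990) and 0.899 (0.868 to 0.932).

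Shortened did not mean cut within the coding region in every gene. In Atp5j, 1419 reads in replicate 1 and 1386 in replicate 2 followed a 4-exon ISM that begins 356 bases after the start of the annotated 5-exon transcript, ahead of the coding region (bases 396 to 722), and 99.9% of the ISM reads of Atp5j covered the whole of it. In Atp5f1, where annotated transcripts held only 0.046% of reads, a 7-exon ISM with 898 and 946 reads begins 486 bases after the start of an annotated coding transcript, ahead of the coding region (bases 546 to 1316), and 90.8% of the ISM reads covered all of it. Both starts lie at the edge of an exon annotated in another transcript of the same gene. Of 68 ISM models of members with at least 5 reads in each library, 62 had the same deposited 5′ end in both libraries and 63 had it at an annotated exon edge. The annotation was done separately for each library but against the same GENCODE M21, so shared ends are not independent evidence of where molecules begin. The files list the ends of models, not of single reads.

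**Figure D4:**
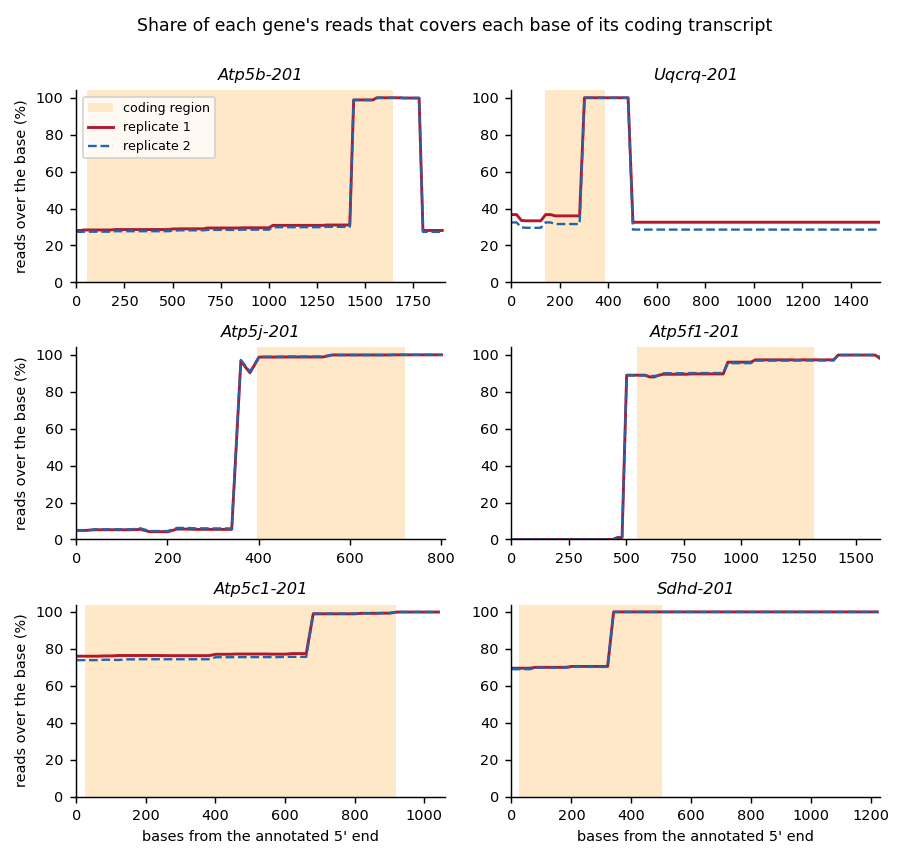
Share of a gene's reads whose deposited model covers each base of a coding transcript, for 6 members, from the annotated 5′ end. Solid lines are replicate 1, dashed lines replicate 2 and shading the coding region. Coverage steps up inside the coding region in Atp5b, Uqcrq, Atp5c1 and Sdhd and ahead of it in Atp5j and Atp5f1. In Atp5b and Uqcrq it falls again past the coding region, before the annotated 3′ end.

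A stricter count took only reads whose deposited model covers an annotated coding region from start to stop, with its splice junctions. The extent is that of the model, and a single read may be shorter, so the shares are not counts of whole molecules. This holds for every whole coding region counted here. By this measure 76.0% of the members' reads in replicate 1 and 73.3% in replicate 2 held a whole coding region, beside 70.6% and 69.3% in the other protein-coding genes. Without Atp5b and Uqcrq it was 91.4% and 90.8%. Of 35 members with at least 100 reads 21 had 90% or more, or 60%, beside 33.7% of the 1507 other genes at that depth. Among genes of the other respiratory complexes the share was as high, at 28 of 40 complex I genes named Nduf a, b, c, s or v (70%) and 9 of 14 genes named Cox4 to Cox8 (64.3%). Of the 35 members 4 had under 50%, which were Atp5b, Uqcrq, Atp5g2 and Sdhaf4. Over all their reads the 46 Nduf genes stood at 71.9% in replicate 1 and 69.9% in replicate 2, and the 16 Cox4 to Cox8 genes at 68.9% and 68.8%. These shares are a description with no test, and the measure was chosen after seeing the data.

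On this scale the order at the top changed. Atp5g1 came first with 4654 CPM in replicate 1 and 4262 CPM in replicate 2, then Atp5b with 3505 and 3749 CPM, Atp5k with 3645 and 3580 CPM and Atp5a1 with 3584 and 3516 CPM. The ranges of Atp5b and Atp5a1 overlapped, so the beta and alpha genes of the F1 head were not separated, whereas from all reads Atp5b stood at 13083 ± 884 CPM and Atp5a1 at 3894 ± 47.6 CPM. Uqcrq, with 2856 CPM (replicate 1) and 2721 CPM (replicate 2), stood below Uqcrc1 with 2926 and 2972 CPM. Over the 29 main subunit genes the highest level was 2.36 times the median when only whole coding regions were counted, against 6.57 times when all reads were. The order over 39 genes was otherwise close to that from all reads (Spearman's rho 0.985).

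**Figure D5:**
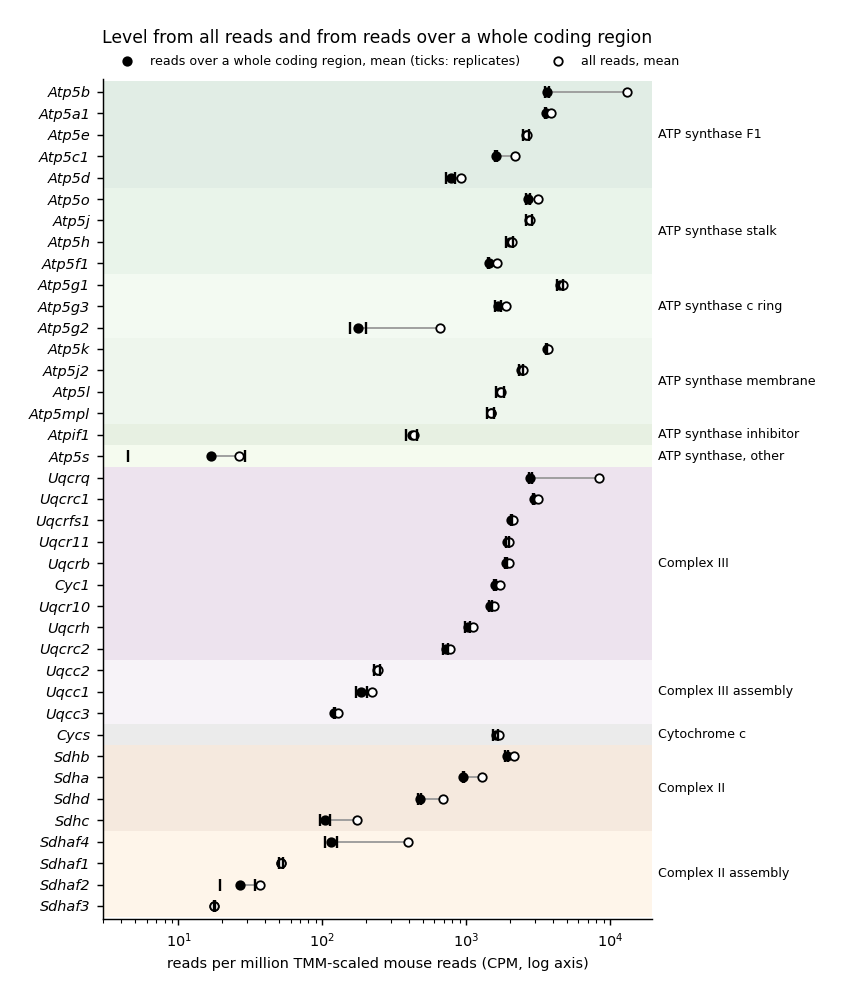
Mean level of each of the 39 genes from all reads (open circles) and from reads over a whole coding region (filled circles, with ticks for replicates 1 and 2), in CPM on a log axis. The largest gaps are those of Atp5b, Uqcrq, Atp5g2 and Sdhaf4, and most other genes keep nearly the same level.

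Atp5c1, the gamma subunit, has a cassette exon of 37 bases (chr2:10056770-10056806), exon 9 of 10 in an annotated transcript, which the annotated 9-exon transcript leaves out. In human and bovine tissue the form without this exon is known as the muscle form. Here 1324 of 1337 reads that cross the site in replicate 1 lacked the exon, and 1423 of 1445 in replicate 2. This is 99.0% (95% interval 98.3 to 99.5) and 98.5% (97.7 to 99.0), a mean of 98.8% ± 0.389 (SD, n = 2). The form with the exon had 13 and 22 reads and so was present in both libraries. The exon changes the end of the protein by 1 codon: the coding region runs 7 bases past the junction with the exon and 4 bases without it, and the remaining 30 bases of the exon follow the stop codon. The last coding bases of both forms are shown for that difference, with capitals for the bases after the junction up to and with the stop codon.
Atp5c1 with the exon, chromosome 2: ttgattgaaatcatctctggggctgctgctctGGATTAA
Atp5c1 without the exon, chromosome 2: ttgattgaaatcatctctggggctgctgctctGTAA

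New splice forms were few. NIC and NNC models held 672 member reads in replicate 1 and 647 in replicate 2, and 13 such models of 10 members had at least 5 reads in each library. The most abundant was in Atp5j, with 143 and 130 reads, and leaves out 5 bases ahead of the coding region (intron chr16:84831503-84834808). In Sdhb an NNC model with 96 reads in replicate 1 and 91 in replicate 2, 6.95% and 6.44% of the gene's reads, joins exon 1 to a point 6 bases inside exon 2 (intron chr4:140961477-140966500). The bases at this junction of the annotated transcript are shown because the model changes the message of the iron-sulfur subunit, with capitals for the 6 bases that it drops.
Sdhb, chromosome 4: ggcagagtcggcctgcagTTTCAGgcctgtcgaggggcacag
The other models were smaller. In Uqcrh 27 and 30 reads left out an exon of 21 bases and gained 13 others (intron chr4:116070025-116074902). The rest had 5 to 21 reads in either library and lay in Atp5h (3 models), Atp5j, Atp5e, Atp5g1, Atp5g3, Atp5j2, Uqcr10 and Uqcrq. Of the 13 models 2 carried a different class in the libraries, in Atp5h and in Atp5j.

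Besides the full transcripts of Atp5b and Uqcrq, 3 genes had a further annotated transcript with at least 5% of their reads and at least 5 reads in each library. In Atp5g1 one of 4715 bases had 323 reads in replicate 1 and 385 in replicate 2, beside 2509 and 2425 reads of the leading one of 596 bases. In Atp5g3 a 723-base transcript held 210 and 243 reads beside 740 and 697 of the leading one. In Atp5h a 5-exon transcript held 101 and 80 reads beside 1182 and 1160 of the leading 6-exon one. Other shortened models included a 3-exon one of Atp5c1 with 286 and 333 reads, a single-exon one of Sdhd with 124 and 142 reads and a single-exon one of Atp5o with 221 and 269 reads. In Sdha 120 reads in replicate 1 and 169 in replicate 2 were of a genomic-class model over the last 479 bases, and in Sdhc 21 and 24 reads were of a genomic-class model of 243 bases in replicate 1 and 250 bases in replicate 2. Models listed antisense to a member's exon had 24 reads in replicate 1 and 22 in replicate 2 over 11 members, with at most 11 in any gene of a library, in Uqcrc1.

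Promoter windows from RefSeq (GRCm38.p6, 250 bases before to 50 after the gene start) matched 31 of the 39 names. Both strands were searched for the letters bound by factors known for respiratory chain genes, and no match overlapped a match of another motif. The motif of nuclear respiratory factor 1 (NRF1), in the form seen in capitals below, was in the windows of 12 of the 31 members (38.7%), against 5.19% of 27025 genes. CCGGAAG, bound by ETS factors such as GABP, was also in 12 (38.7%, against 9.93%), AAGATGGC of YY1 in 4 (12.9%, against 3.19%) and TCAAGGTCA of estrogen-related receptors in 2 (6.45%, against 0.466%). GGGCGG of SP1 was in 17 (54.8%, against 38.2%), and TATAAA in 2 (6.45%, against 15.7%). These are matches of letters and not shown sites. The 27025 genes are not limited to those with reads, and the Nduf and Cox genes were not looked at separately. The windows of the 3 most abundant members with NRF1 letters are given with the match in capitals. The name rule did not use this feature, which 12 of the 31 members have.
Atp5k promoter, chr5:108434350-108434649, minus strand: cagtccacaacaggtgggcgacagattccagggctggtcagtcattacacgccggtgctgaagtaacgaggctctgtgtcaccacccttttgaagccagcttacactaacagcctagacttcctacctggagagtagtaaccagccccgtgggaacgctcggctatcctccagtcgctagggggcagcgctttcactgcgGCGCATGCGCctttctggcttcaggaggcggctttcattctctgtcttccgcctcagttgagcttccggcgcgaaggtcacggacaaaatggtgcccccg
Uqcrc1 promoter, chr9:108936398-108936697, plus strand: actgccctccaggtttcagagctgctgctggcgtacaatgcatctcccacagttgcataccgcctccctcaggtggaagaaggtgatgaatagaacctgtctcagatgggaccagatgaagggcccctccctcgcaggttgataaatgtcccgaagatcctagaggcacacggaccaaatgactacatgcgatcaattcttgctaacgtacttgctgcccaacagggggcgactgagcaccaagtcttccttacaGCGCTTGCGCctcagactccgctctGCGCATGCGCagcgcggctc
Atp5c1 promoter, chr2:10080383-10080682, minus strand: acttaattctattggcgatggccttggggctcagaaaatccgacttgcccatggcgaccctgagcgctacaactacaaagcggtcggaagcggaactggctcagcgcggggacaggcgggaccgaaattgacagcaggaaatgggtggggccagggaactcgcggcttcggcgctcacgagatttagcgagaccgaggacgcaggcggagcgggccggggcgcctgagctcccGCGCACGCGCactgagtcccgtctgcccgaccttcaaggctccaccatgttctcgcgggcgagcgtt
The match begins 50 bases before the gene start in Atp5k and 17 bases before it in Atp5c1, and Uqcrc1 has 2 matches after its start. NRF1 letters were also in the windows of Atp5h, Atp5g3, Sdha, Sdhd, Atp5g2, Atpif1, Sdhaf4, Uqcc2 and Sdhaf3. Their levels ran from 2087 CPM for Atp5h down to 17.8 CPM for Sdhaf3. The Atpif1 window (chr4:132535365-132535664) does not reach the start of its leading annotated transcript, at position 132533659 on the minus strand.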

How the data were processed

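The deposited tables give raw long-read counts per transcript model, annotated separately in each library against GENCODE M21 on mm10, per the notes deposited beside them. The models carry TALON classes, per the file headers. No aligner, version or filter is named in the sources used here. Counts were summed per annotated gene without spike-ins and scaled by TMM (edgeR 4.0.16). With 1 group of 2 libraries edgeR's quasi-likelihood test could not be fitted. Each gene with at least 10 reads was tested by an exact binomial test, and leading transcript shares by Fisher's exact test, with Benjamini-Hochberg adjustment. Both were tested on simulated data that held counting error only, so the simulation does not cover further spread between libraries. Both tests compare these libraries, not conditions. Intervals are exact (95%) and cover counting error only. Mouse reads numbered 630211 in replicate 1 and 664319 in replicate 2, where 1 read is 1.61 and 1.48 CPM. Pseudogene copies were matched with BLAST 2.17.0. Alternatives changed the scaling (DESeq2 1.42.0 size factors, total reads), the read minimum and the classes counted. Named were all subunits, called members, leading transcripts, new-splice models with at least 5 reads in each library, other annotated transcripts with that minimum and at least 5% of a gene's reads, and the 3 most abundant genes of other pathway lists. Members and lists were chosen with earlier results of these data known.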

Additional observations from a re-analysis of the deposited data

How the results depend on the processing

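Of 89 values under other settings, 62 were labelled unchanged, 7 lost a call, 1 gained calls, 2 reversed and 17 moved. Unchanged values kept their direction and side of the threshold, or moved by less than the spread between replicates. Counts of called members were allowed a small change, so falls from 3 to 2 are among the 62. With 2 replicates, leaving out either one always moves a mean by less than that spread. The values without a replicate were therefore unchanged by design and are no test of stability. Reads of annotated transcripts alone left 0 members called between the libraries and 0 with a differing leading transcript; Uqcrq then reversed to a log2 ratio of 0.043 and a leading share difference of 0.436 points. A minimum of 50 reads gave 6 called members. Summed levels were, without erythroid genes in the library sizes, 80878 CPM for all members, 4406 for complex II, 23151 for complex III and 50015 for ATP synthase. From annotated transcripts alone they were 83488 for all members, 5220 for complex II, 25076 for complex III, 2424 for cytochrome c and 1794 for the assembly factors and inhibitor. Without the genomic class they were 84975, 4424 for complex II, 24642 for complex III, 52793 for ATP synthase and 1344 for the assembly factors and inhibitor. The order by level had a rho of 0.827 per kilobase. Of the alternatives, 2 were chosen after seeing the data: whole coding regions (order rho 0.985) and the annotated share without Atp5b, Uqcrq, Atp5j and Atp5f1 (90.5%). The causes were not tested. Leaving out either replicate gave 78691 to 79668 CPM for all members, 4308 to 4319 for complex II, 22448 to 22883 for complex III, 1628 to 1740 for cytochrome c, 48382 to 49547 for ATP synthase, 1456 to 1595 for assembly factors and inhibitor, 68.3% to 70.7% for the annotated share and 98.5% to 99.0% for Atp5c1 without its cassette exon. No paired analysis was possible because the series has 1 group. A level under 3 reads, 4.83 CPM in replicate 1 and 4.45 CPM in replicate 2, could not be told from 0.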
